A study of Mus musculus with 24 samples.

Results

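Thyroglobulin and 4 genes that carry, convert or respond to thyroid hormone were examined in mouse liver: Tg, Ttr, Slc16a10, Dio1 and Klf9. Every non-control array probe that the scanner files name for one of these symbols was taken, which gave 12 probes among the 56605 on the array. Of these, 11 passed the background filter (flagged by the scanner software as well above background in 6 mice or more), as did 36229 probes of 23966 genes in all. The genes were chosen with their levels in these same 4 groups known, so their values are given as a description, with no test.

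The livers came from 24 wild-type C57Bl/6J male mice aged 8 weeks, 1 array per mouse and 6 mice per group. One group was fasted for 24 hours. The other groups ate chow freely and, over the same 24 hours, drank water with 20% fructose, water with 20% glucose or plain tap water. All mice had been raised on the same chow and were killed at zeitgeber time 16, and the 3 comparisons with tap water share those 6 mice.

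Thyroglobulin is the large secreted protein of the thyroid follicle on whose tyrosines thyroid hormone is made, and it is not known as a liver protein. The liver secretes transthyretin, the product of Ttr, which carries thyroxine and the retinol-binding protein in blood. Slc16a10 encodes a membrane transporter of the monocarboxylate family that moves thyroid hormone and aromatic amino acids. Dio1 encodes the type 1 deiodinase, which converts thyroxine to the active hormone triiodothyronine and also degrades iodothyronines. Klf9 encodes a Krüppel-like transcription factor whose gene is induced by triiodothyronine, and by glucocorticoids as well.

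The finding for Tg rests on 1 of its 2 probes, so both sequences are shown as the array's design gives them, 5′ to 3′ on the transcript strand, with no letters marked. The array's annotation places them on the plus strand of chromosome 15 in mm9, at chr15:66682078-66682137 for the probe that starts at base 8231 of the transcript and at chr15:66539527-66539586 for the one at base 4639. Each lies in 1 unbroken stretch of the Tg gene, and base 8231 is on the 3′ side.
Tg probe at base 8231: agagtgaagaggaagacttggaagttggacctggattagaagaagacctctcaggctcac
Tg probe at base 4639: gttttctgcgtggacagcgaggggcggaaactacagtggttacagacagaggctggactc

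The 250 bases before the starts of Klf9 and Slc16a10 are shown because the levels of both genes were higher in every fasted mouse than in any fed mouse on tap water. The sequences are from RefSeq on GRCm38.p6. The Klf9 stretch is chr19:23140976-23141225 on the plus strand and the Slc16a10 stretch is chr10:40142255-40142504 on the minus strand. The letters AGGTCA (core of nuclear receptor elements), AGAACA (core of glucocorticoid elements), CACGTG (an E-box) and TGACG (core of cAMP response elements) were searched on both strands. None of the 4 contains another. Capitals mark the matches.
Klf9 upstream: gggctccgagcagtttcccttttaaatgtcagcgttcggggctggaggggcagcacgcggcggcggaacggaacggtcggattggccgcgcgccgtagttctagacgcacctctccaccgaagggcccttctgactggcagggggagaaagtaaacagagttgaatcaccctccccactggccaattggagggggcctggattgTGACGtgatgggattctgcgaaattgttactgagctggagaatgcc
Slc16a10 upstream: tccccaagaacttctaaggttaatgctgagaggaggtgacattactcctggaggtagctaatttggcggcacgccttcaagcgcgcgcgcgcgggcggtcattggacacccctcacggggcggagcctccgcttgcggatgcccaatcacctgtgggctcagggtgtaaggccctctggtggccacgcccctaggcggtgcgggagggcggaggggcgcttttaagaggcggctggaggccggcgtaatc
Klf9 held 1 match, TGACG at position -46 from the start. In the same window, 17.9% of the 27025 mouse promoters examined held TGACG, 13.8% held AGGTCA, 16.2% held AGAACA and 6.0% held CACGTG. None of the 4 sets of letters was found in the Slc16a10 window or in that of Dio1 (chr4:107307169-107307418, minus strand).

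Levels are log2 processed signals minus the array's 75th percentile of all non-control probes, so a level of 0 is that percentile, and a difference of 1 is a doubling. Levels of different probes are not comparable with each other, since probes bind with different strength. Each array had 32516 to 36272 probes that the scanner software marked well above background. The lowest signal among such probes, the array's floor, lay between levels of -5.38 and -4.71. All 9 hepatocyte markers examined were well above background on all 24 arrays. In bulk liver RNA, a change in the number of cells of a type cannot be told apart from a change in RNA per cell.

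Between fasted mice and fed mice on tap water, 3 of the 5 genes (Tg, Slc16a10 and Klf9) were higher in fasted mice with no overlap between the groups, and 1 (Ttr) was lower with no overlap, each judged at its brightest probe that passed the filter. Tg passed the background filter only through the fasted group, so its place in this count is not independent of the filter. Over all 23966 genes, 12.3% were higher and 12.0% lower without overlap, or 24.3% in either direction. These percentages are given as background only, because the 5 genes were picked on this contrast.

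Thyroglobulin signal at the 3′-side probe was above background in fasted livers alone. The probe at base 8231 was well above background in 6 of 6 fasted mice, in 0 of 6 mice on fructose, in 0 of 6 on glucose and in 0 of 6 on tap water. Its level in fasted mice was -2.67 at the lowest, -1.33 at the median and -0.70 at the highest, a processed signal of 48.3 to 179 in intensity units. In mice on fructose it ran from -7.07 through a median of -6.88 to -6.23. In mice on glucose it ran from -7.40 through a median of -7.00 to -6.13. In mice on tap water it ran from -7.29 through a median of -6.86 to -5.27, a processed signal of 1.98 to 7.71. The 18 fed mice were thus all below the background flag, and the lowest fasted mouse lay above the highest fed mouse.

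Fasted mice averaged -1.48 ± 0.72 and mice on tap water -6.68 ± 0.72 (SD, n = 6 each). Because every fed array gave only a bound, the fold change was set against the floor: per array, the higher of the floor and the probe's own signal. On that scale the signal of this Tg probe was at least 11.6-fold higher in fasted mice than in mice on tap water, a log2 bound of 3.54. The bound was lower, at 2.07, in the deposited series table and 1.30 after the normexp background correction. No fold is given among the 3 fed groups, since all were below background. Within the 3 slides, each of which held 2 arrays of every group, the fasted means of the probe were -2.30, -1.13 and -1.0, against -6.16, -7.02 and -6.86 in mice on tap water.

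The second Tg probe, at base 4639, did not follow. It was well above background on 1 of 24 arrays, that of replicate 1 of the fructose group, at a level of -3.32. In fasted mice it ran from -7.28 through a median of -6.85 to -6.13, and in mice on tap water from -7.23 through a median of -6.88 to -6.31. The 2 groups overlapped almost fully and both stayed below background. Across the 24 arrays the 2 Tg probes had a Pearson r of -0.16, given as a description of probes on the same arrays. The Tg difference is therefore a measurement of whatever RNA binds the probe at base 8231. Whether that RNA is the Tg transcript was not tested. For the transcript around base 4639 all but 1 of the arrays give only a bound.

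**Figure D1:**
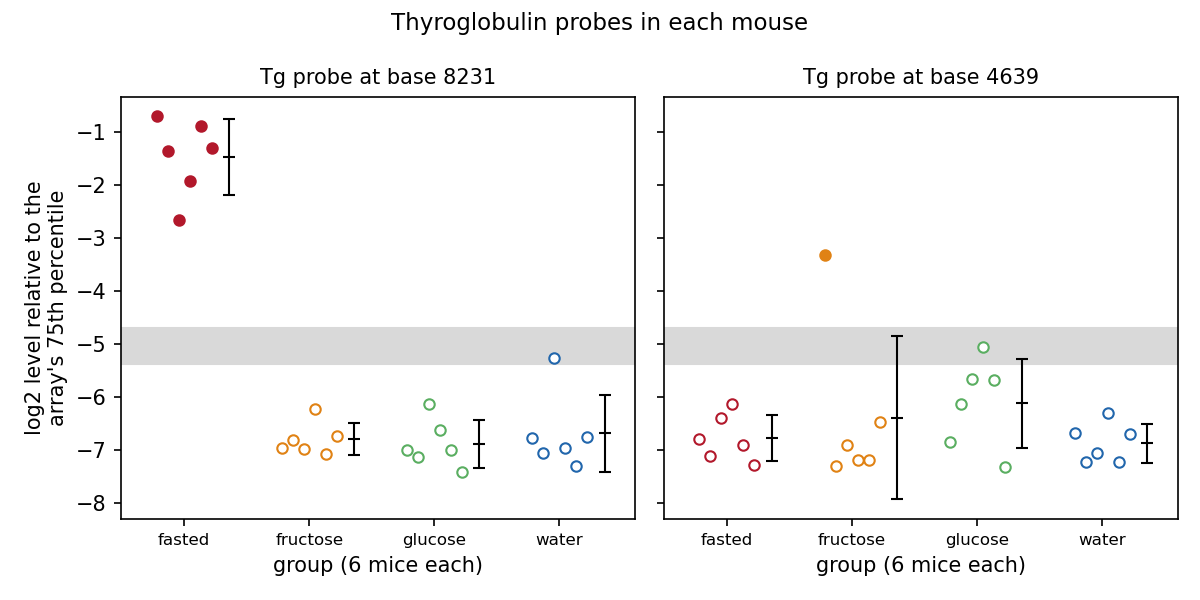
Log2 level of the 2 Tg probes in each mouse, by group (6 mice each); filled points are well above background, open points are not, black bars are the mean and SD, and the grey band spans the arrays' floors. The fasted mice stand apart at base 8231, between -2.67 and -0.70, while at base 4639 only 1 fructose mouse, at -3.32, is above background; the panels share an axis, but the 2 probes' levels are not comparable.

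Most other genes of the thyroid follicle were below background or did not pass the test, and 1, Duoxa1, rose in fasted mice. The TSH receptor gene Tshr, the iodide importer gene Slc5a5 and the transcription factor gene Nkx2-1 were each well above background on none of the 24 arrays. Of 7 follicle markers 3 passed the background filter, Iyd, Pax8 and Foxe1. The summed level of all 7, on a linear scale relative to the 75th percentile, comes mostly from Iyd. Of the 3, Iyd was the 1 above background on all 24 arrays. The sum was 0.595 to 0.688 in fasted mice, 0.532 to 0.728 on fructose, 0.554 to 0.658 on glucose and 0.633 to 0.674 on tap water. Of a longer list of 12 follicle genes 7 were measured, and 1 rose and 1 fell in fasted mice, where 21.7% of all genes rose and 20.9% fell. The one that rose was Duoxa1, a maturation factor of the dual oxidases (log2 difference 0.81 ± 0.21, SE; limma adjusted p = 0.00355), which was well above background in 6 of 6 fasted mice, 5 of 6 on fructose, 2 of 6 on glucose and 2 of 6 on tap water. The one that fell was the anion exchanger gene Slc26a4 (-1.08 ± 0.42, limma adjusted p = 0.0416), above background in 2 of 6 fasted mice and 4 of 6 on tap water. The other 5, among them the iodotyrosine deiodinase gene Iyd at -0.08, did not pass the test.

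The probes around Tg were examined in a window of 250 kb on either side of the 3′-side probe, chosen after its values were seen. Sla, a gene for a Src-like adaptor protein, lies on the opposite strand between the 2 Tg probes. Its 2 probes above the filter disagreed, with log2 differences of 1.15 between fasted mice and mice on tap water, without overlap, and 0.19, with overlap, at 68.9 and 68.1 kb from the Tg probe. The 6 probes for intergenic RNAs that lie 3.07 to 40.8 kb beyond the Tg probe had differences between -0.44 and 0.27. All 6 overlapped between the groups, but their detection varied. The probes at 3.07 and 40.8 kb were well above background in 4 and 5 fasted mice, and in 5 and 6 on tap water. That at -0.44, 27.4 kb away, was so in 0 mice of either group, and that at 28.2 kb in 1 of each. Differences between signals mostly below background cannot show whether such RNA changed. Ccn4, a matricellular protein gene 69.5 kb away, was lower without overlap at -0.85. Ndrg1, a stress-responsive gene 78.8 kb away, was higher at 0.65 with overlap. Of 9 neighbouring genes listed, 7 were measured, 4 of which rose (Sla, Phf20l1, Tmem71 and Ndrg1) and 1 of which fell (Ccn4) by limma's adjusted p, beside 21.7% and 20.9% of all genes. The median difference of the 7 was 0.32, beside 0.02 over all genes. That median is the value of Phf20l1, whose 7 probes above the filter ran from -0.26 to 0.63. The list reaches beyond the window, in which Tmem71, for example, has no probe.

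**Figure D2:**
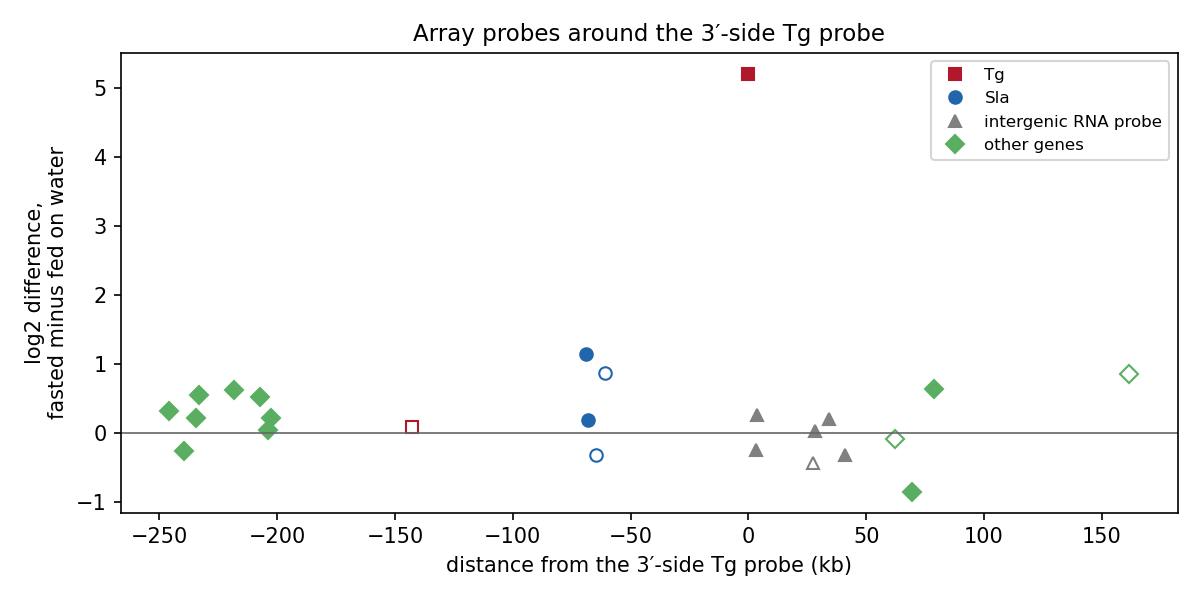
Log2 difference between fasted mice and mice on tap water (n = 6 each) for each array probe against its distance in kb from the 3′-side Tg probe; filled symbols passed the background filter and open symbols did not. The Tg probe stands at 5.20, a difference taken against signals below background, while the other probes in the window lie between -0.85 and 1.15 if above the filter.

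Ttr was lower in fasted mice at both of its probes, by amounts that differed between them. At the brightest probe, base 428, the level in fasted mice ran from 9.46 through a median of 9.49 to 9.59. In mice on tap water it ran from 9.69 through a median of 9.74 to 9.77. The groups did not overlap, and the difference was -0.23 ± 0.04 (SE), or 1.18-fold lower in fasted mice. At base 1005 the level ran from 3.79 through a median of 4.13 to 4.33 in fasted mice, against 5.30 through 5.31 to 5.45 in mice on tap water. There the difference was -1.26 ± 0.10, or 2.39-fold lower, again without overlap. Every fasted mouse was therefore below every mouse on tap water at either probe.

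The size of the Ttr difference at base 428 depended on the scaling: it was -0.45 in the deposited series table and -0.41 after quantile normalization. No spot of this probe was saturated. Over the 24 arrays the 2 probes had an r of 0.78, and 0.60 once group means were removed. Within slides the difference was -0.23, -0.28 and -0.19 at base 428, and -1.35, -1.42 and -1.01 at base 1005.

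In the sugar groups the Ttr differences from tap water were small, on average lower at both probes on fructose and of opposite sign at the 2 probes on glucose. At base 428 the level in mice on fructose ran from 9.56 through a median of 9.57 to 9.78, and the difference from mice on tap water was -0.13 ± 0.04. The highest of these values came from replicate 4 alone. The other 5 mice on fructose lay at 9.59 or lower, below every mouse on tap water, and without replicate 4 the difference was -0.17. It was smaller, at -0.030, in the deposited series table and -0.015 after quantile normalization. In mice on glucose the level ran from 9.60 through a median of 9.65 to 9.71, a difference of -0.09 ± 0.04 with overlap. At base 1005 the differences were -0.06 ± 0.10 for fructose and 0.05 ± 0.10 for glucose, with overlap in both. Of 5 markers of the choroid plexus, the other main site of Ttr expression, 2 passed the background filter. The summed linear level of all 5 was 0.136 to 0.248 in fasted mice and 0.138 to 0.247 in mice on tap water. Kl and Kcne2 were above background on none of the 24 arrays.

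Slc16a10 was higher in fasted mice and lower in mice on glucose than in mice on tap water. At its brightest probe, base 2195 (mm9 chr10:39756480-39756539, minus strand), the level in fasted mice ran from 2.29 through a median of 2.56 to 3.20. In mice on fructose it ran from 1.12 through 1.40 to 1.85, and in mice on glucose from 0.57 through 1.05 to 1.25. In mice on tap water it ran from 1.31 through 1.59 to 2.13. The order of the group means was fasted, tap water, fructose and glucose. Fasted mice overlapped no other group and mice on glucose did not overlap those on tap water, while mice on fructose overlapped both of their neighbours in that order.

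The fasted difference of Slc16a10 was 1.00 ± 0.17 (SE), or 2.01-fold higher. It was also free of overlap at the other 2 probes, at 0.78 ± 0.14 for base 884 and 1.15 ± 0.20 for base 1044. The array's design assigns bases 2195 and 884 to different transcript variants and base 1044 to a cDNA clone. The size varied by slide at base 2195, at 0.25, 1.59 and 1.17. The slide means were 2.33, 3.17 and 2.56 in fasted mice, against 2.08, 1.59 and 1.39 in mice on tap water, so the first slide held both the lowest fasted and the highest tap water mean.

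Slc16a10 was the 1 gene of the 5 whose levels in a sugar group did not overlap those on tap water. Over all genes, 0.930% were higher and 1.43% lower in mice on glucose without overlap, 2.36% in all, and for fructose the shares were 1.04% and 0.722%, 1.77% in all. The difference for glucose was -0.69 ± 0.17, or 1.62-fold lower. At the other 2 probes it was -0.38 ± 0.14 for base 884 and -0.57 ± 0.20 for base 1044, both lower on average but with overlap. Within slides it was -1.0, -0.74 and -0.34 at base 2195. For fructose the difference was -0.24 ± 0.17 at base 2195, -0.10 ± 0.14 at base 884 and -0.26 ± 0.20 at base 1044, with overlap at each. Mice on fructose were higher than mice on glucose by 0.46 ± 0.17 at base 2195, with overlap. No gene of the 5 was separated between fructose and glucose, where 0.396% of all genes were higher and 0.250% lower without overlap, 0.647% in all.

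Dio1 was on average lower in fasted mice, within the spread of the fed groups. At its brightest probe, base 842 (mm9 chr4:106964832-106964891, minus strand), the level in fasted mice ran from 3.49 through a median of 3.61 to 3.72. In mice on fructose it ran from 3.29 through 4.00 to 4.26, in mice on glucose from 3.45 through 3.78 to 4.27, and in mice on tap water from 3.54 through 4.02 to 4.39. All groups overlapped. The difference between fasted mice and mice on tap water was -0.39 ± 0.18 (SE), or 1.31-fold lower, and it was -0.39 and -0.42 at the probes at bases 301 and 739. The differences for fructose and glucose were -0.17 ± 0.18 and -0.13 ± 0.18.

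What set the fasted mice apart for Dio1 was their narrow range. The SD over 6 mice was 0.08 in fasted mice, against 0.42 on fructose, 0.33 on glucose and 0.37 on tap water. The spread among fed mice was shared by all 3 Dio1 probes, which target different bases. With group means removed, the probes had an r of 0.974 to 0.990 with each other over the 24 arrays. The within-slide differences between fasted mice and mice on tap water at base 842 were -0.42, -0.28 and -0.46.

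Klf9 was higher in every fasted mouse than in any fed mouse. At its brightest probe, base 2271 (mm9 chr19:23240410-23240469, plus strand), the level in fasted mice ran from 4.27 through a median of 4.50 to 4.80. In mice on fructose it ran from 3.01 through 3.26 to 3.66, in mice on glucose from 2.62 through 3.15 to 3.41, and in mice on tap water from 3.09 through 3.14 to 3.37. The 3 fed groups overlapped one another and the fasted group overlapped none. The fasted difference was 1.37 ± 0.12 (SE), or 2.59-fold higher, and at the second probe, base 724, it was 1.40 ± 0.11, or 2.64-fold. The array's design assigns base 724 to a cDNA clone, and places it downstream of base 2271 in the genome (mm9 chr19:23242324-23242383). Within slides the difference at base 2271 was 1.47, 1.42 and 1.22. Neither sugar separated Klf9 from tap water: the differences were 0.13 ± 0.12 for fructose and -0.06 ± 0.12 for glucose.

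**Figure D3:**
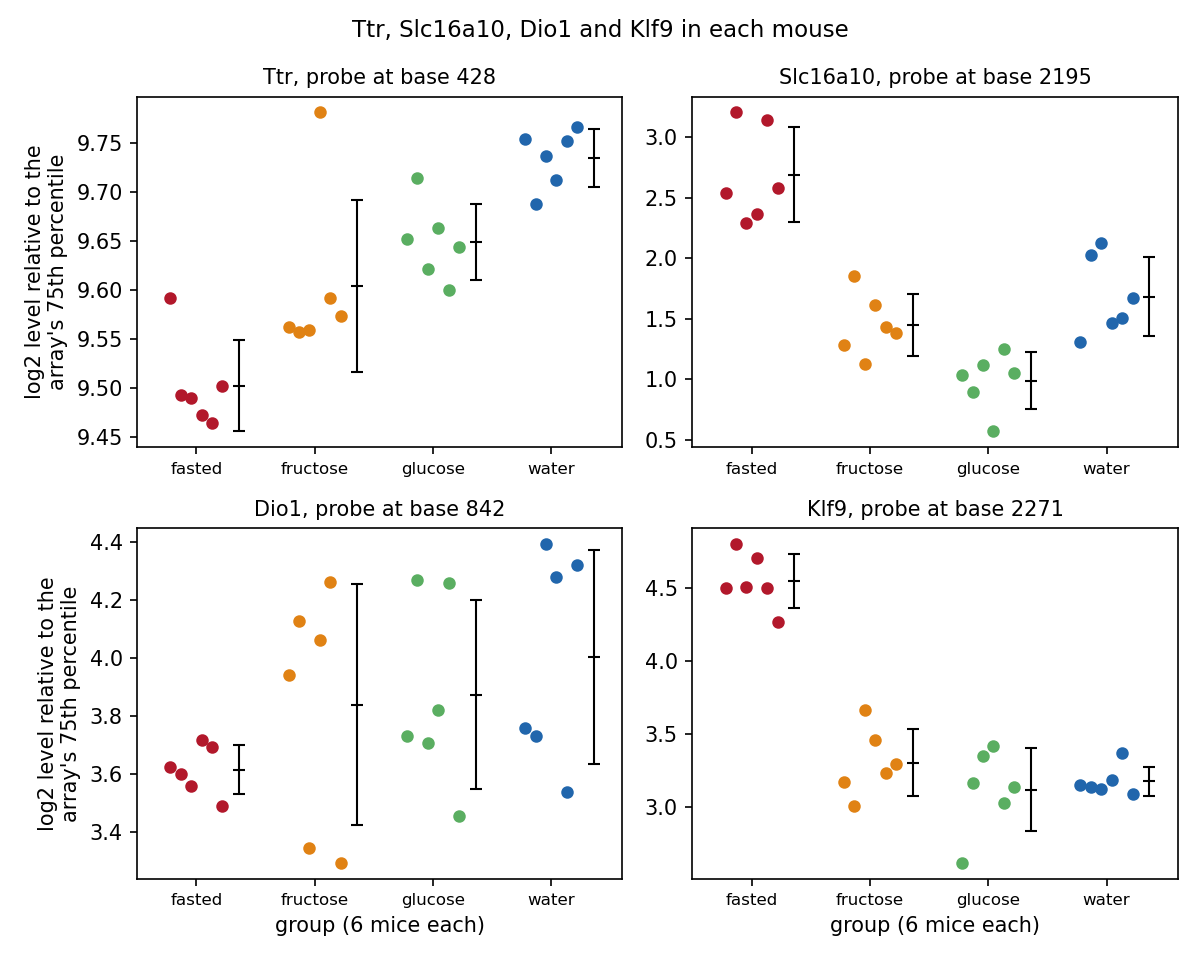
Log2 level at the brightest probe of Ttr, Slc16a10, Dio1 and Klf9 in each mouse, by group (6 mice each), with the mean and SD as black bars; each panel has its own axis. Fasted mice lie above all fed mice for Klf9 and Slc16a10, and below all mice on tap water for Ttr, and for Dio1 they lie within the range of the fed mice with an SD of 0.08.

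**Figure D4:**
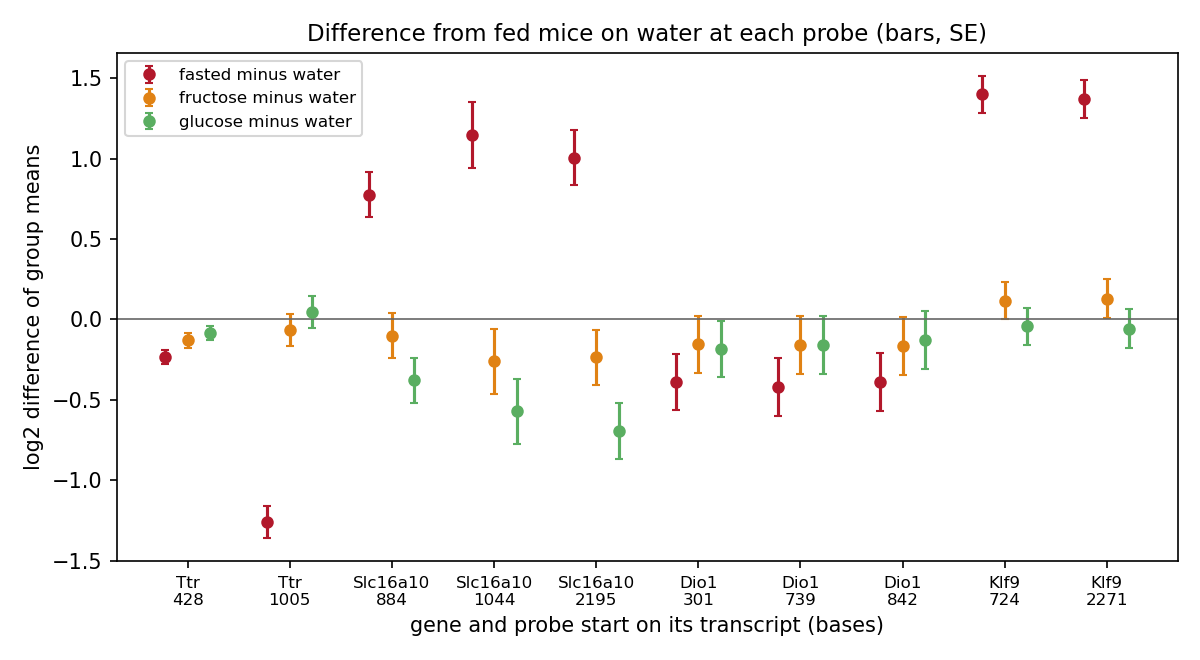
Log2 difference from mice on tap water at each probe of the 4 genes measured in all groups, for fasted mice, mice on fructose and mice on glucose (n = 6 each), with SE bars from the fit over 24 arrays. Probes of one gene agree in direction for the fasted difference, and the Ttr probes differ in size, at -0.23 and -1.26.

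The genes whose levels over the 24 arrays were most like each of the 5 were found by Pearson's r. These values are descriptions: the arrays share the groups, and fasted mice stand far from fed ones for many genes. For Tg the highest named gene was Zfp746, a zinc finger protein gene, at 0.98, with Sorbs3 and Slc25a22 at 0.97. Since 18 of the 24 Tg values were below background, these values mainly restate the step between fasted and fed mice. With group means removed, the values for those 3 were 0.40, 0.35 and 0.53, which rest largely on signals below background. For Klf9 the most similar named genes were Map3k6 at 0.96 and Fbxo31 at 0.95. For Ttr they were Rfng and C1ra, both at 0.88.

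Slc16a10 and Dio1 had close companions also among mice of the same group. Sult1d1, a sulfotransferase gene, had an r of 0.96 with Slc16a10 at base 2195 over all arrays and of 0.86 with group means removed. Its own fasted difference was 1.35. With group means removed, base 2195 had an r of 0.71 with the Slc16a10 probe at base 884, but of 0.05 with that at base 1044. The likeness to Sult1d1 is therefore given for the probe at base 2195 only. Mup11, one of the major urinary protein genes, had an r of 0.88 with Dio1 over all arrays and of 0.85 with group means removed. Mup genes are near-identical copies, so the Mup11 probe may bind RNA of several of them.

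The rest of the thyroid hormone pathway was examined as 6 lists of 66 genes that left out the 5 above, of which 58 were measured. Between fasted mice and mice on tap water 14 rose and 21 fell by limma with Benjamini-Hochberg adjustment over all 23966 genes, or 24.1% and 36.2%. Over all genes 21.7% rose and 20.9% fell, 42.6% in either direction. The median difference of the 58 was -0.02, beside 0.02 over all genes.

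Beside Ttr, 2 of the 4 other genes listed for hormone binding and transport in blood or cytosol fell in fasted mice, Serpina7 and Crym. Over all genes 20.9% fell and 21.7% rose. Serpina7, the gene of thyroxine-binding globulin, averaged -4.13 ± 0.48 in fasted mice, where 5 of 6 were well above background, and -0.35 ± 0.64 in mice on tap water (SD). That was 13.7-fold lower in fasted mice (limma adjusted p = 2.06e-09). Crym, which encodes a cytosolic protein that binds triiodothyronine, fell by 0.75 on the log2 scale (limma adjusted p = 0.00601). Rbp4, whose protein travels bound to transthyretin, and Alb did not pass the test, at 0.14 and -0.03. The median of the 4 was -0.39.

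Beside Slc16a10, the 10 other membrane transporters of thyroid hormone gave 1 rise and 5 falls, where 21.7% of all genes rose and 20.9% fell. Their median was -0.23. Slco1a4, an organic anion transporter gene, rose by 2.40 ± 0.27 (limma adjusted p = 1.45e-07), and it was lower on glucose, at -1.29 ± 0.27 (limma adjusted p = 0.0196). Slco1a1 fell by 2.03 in fasted mice (limma adjusted p = 2.14e-09). Slc17a4 fell by 1.11 (limma adjusted p = 0.000212) and was higher on fructose, at 0.90 ± 0.22 (limma adjusted p = 0.0473). Of the 8 other monocarboxylate transporter genes listed, 3 rose and 4 fell, beside 21.7% and 20.9% of all genes, with Slc16a5 at 3.38, Slc16a6 at -1.63, Slc16a7 at 0.83 and Slc16a12 at -0.59.

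Beside Dio1, the deiodinase gene Dio3 did not pass the test, at -0.19, and Dio2 was below the background filter. Of the 6 genes measured in the list of deiodinases and conjugating enzymes, which also held the aminotransferase gene Aadat, 3 rose and 2 fell. Over all genes 21.7% rose and 20.9% fell. The median of the 6 was 0.18. The sulfotransferase gene Sult1a1 rose by 1.19 ± 0.18 (limma adjusted p = 7.04e-06), while Sult1c2 fell by 1.81 ± 0.23 (limma adjusted p = 1.02e-06). The glucuronosyltransferase gene Ugt1a6a fell by 0.72 and the aminotransferase gene Aadat rose by 0.64. The family of Ugt1a genes shares exons, so its probes may read more than 1 member.

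Of 17 receptors and coregulators 5 rose and 4 fell, or 29.4% and 23.5%, near the 21.7% and 20.9% of all genes. Their median was 0.08. Thrb, the main thyroid hormone receptor gene of liver, fell by 0.44 ± 0.07 (limma adjusted p = 1.32e-05). Thra, at its brightest probe, was at 0.08 without passing the test, but its 3 probes above the filter ran from 0.08 to 0.67. The corepressor complex genes Tbl1xr1 and Tbl1x moved in opposite directions, at 0.82 and -0.68, and the retinoid receptor gene Rxrg fell by 0.69.

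Beside Klf9, 14 other liver genes known to be raised by thyroid hormone were split, with 4 higher and 7 lower. Over all genes 21.7% rose and 20.9% fell. The median of the 14 was -0.49. Thrsp fell by 4.52 ± 0.24 (limma adjusted p = 1.82e-12), Fasn by 3.42 and Cyp7a1, a bile acid synthesis enzyme, by 2.85. Ppargc1a, a coactivator gene of gluconeogenesis, rose by 2.58 ± 0.27 (limma adjusted p = 5.06e-08). Most of these genes are also known to follow feeding and insulin. Of 10 other Krüppel-like factor genes 5 rose and 1 fell, beside 21.7% and 20.9% of all genes, with Klf11 at 1.63, Klf15 at 0.71, Klf4 at 0.70 and Klf13 at -0.61, and a median of 0.43. Of 9 genes known to be induced by glucocorticoids 6 rose and 0 fell, beside the same shares of all genes. By limma, 0 were lower also at an unadjusted p under 0.05. Mt2 was at 5.68, Cdkn1a at 3.71, Zbtb16 at 1.75 and Fkbp5 at 1.36, and the median of the 9 was 1.28. Tsc22d3, Per1 and Dusp1 did not pass the test, at 0.16, 0.17 and 0.50. The part of glucocorticoids in the Klf9 difference was not tested.

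**Figure D5:**
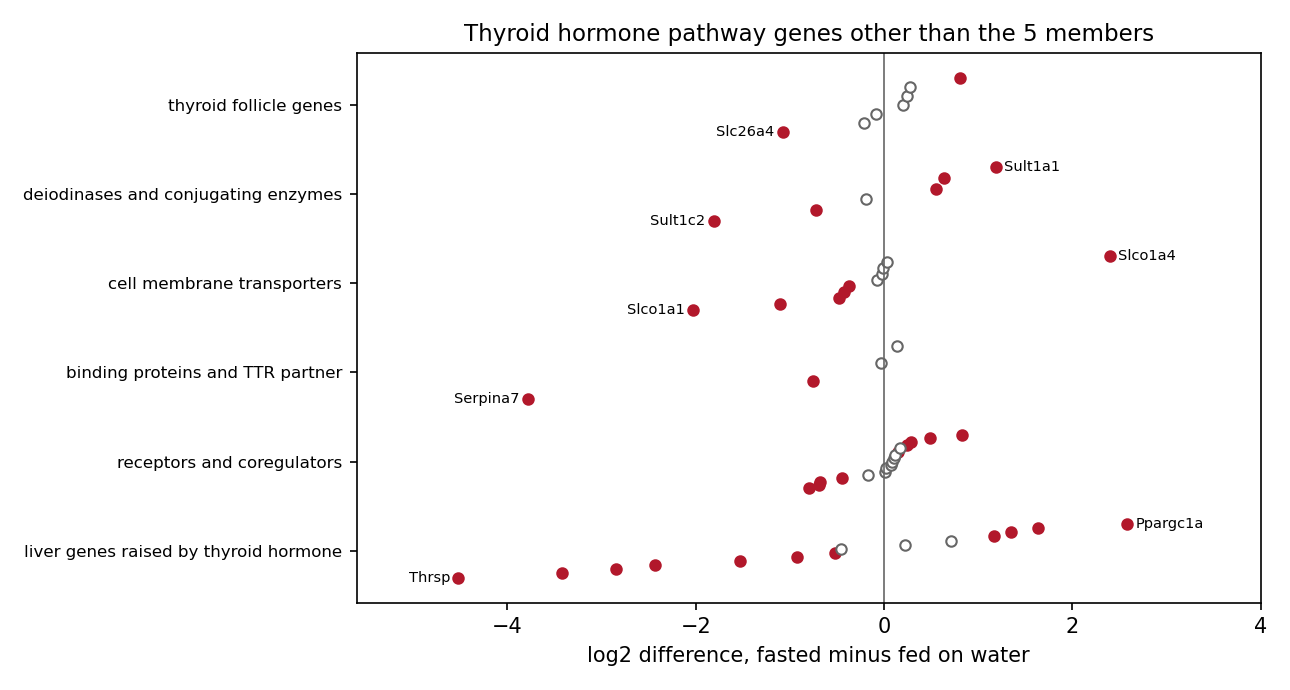
Log2 difference between fasted mice and mice on tap water (n = 6 each) for the measured genes of the 6 pathway lists, 1 point per gene; red points passed limma's adjusted p under 0.05 and open points did not. The points run from Thrsp at -4.52 to Ppargc1a at 2.58, and each list but that of the binding proteins holds genes called in both directions.

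The sugars moved few of the 58 pathway genes. On glucose 2 rose and 1 fell (limma adjusted p under 0.05), or 3.4% and 1.7%, beside 0.409% and 0.421% of all genes. On fructose 3 rose and 0 fell at the same threshold, or 5.2% and 0%, beside 0.501% and 0.380%. At an unadjusted p under 0.05 the counts were 9 higher and 6 lower on glucose, and 6 higher and 7 lower on fructose. The shares of all genes at that unadjusted threshold are not given, so these counts cannot be set against the array as a whole. Me1, the cytosolic malic enzyme, rose on both, by 1.30 ± 0.20 on glucose and 1.43 ± 0.20 on fructose. Acaca, acetyl-CoA carboxylase, rose by 0.85 ± 0.14 and 0.74 ± 0.14. The call of Slco1a4 on glucose, the 1 fall, was lost when replicate 2 or 5 of the glucose group or replicate 2 or 5 of the tap water group was left out. Klf11 rose on fructose by 0.88 ± 0.16 (limma adjusted p = 0.0114). Between fructose and glucose 0 of the 58 genes passed limma's adjusted threshold, as did 0 of all 23966 genes. Of the 58, 4 were higher and 3 lower at an unadjusted p under 0.05, again without a share of all genes to set beside them.

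Markers of other cell types also moved between fasted mice and mice on tap water, and their part in the results above was not tested. Their calls are to be read beside the 21.7% of all genes that rose and the 20.9% that fell. Of 6 Kupffer cell markers 2 rose, Vsig4 and Marco, with a summed linear level of 68.8 to 112 in fasted mice and 61.4 to 86.2 in mice on tap water. Of 6 lymphocyte markers 5 were measured and 2 fell, Cd3g and Ms4a1, with sums of 2.12 to 3.00 and 2.49 to 3.21. Of 6 adipocyte markers 1 rose, Adipoq, with sums of 1.06 to 3.35 and 1.32 to 4.12. Adipoq was well above background in 6 of 6 fasted mice, 1 of 6 on tap water and 0 on either sugar. It thus passed the filter only through the fasted group, and its rise was taken against signals mostly below background. Of the 9 hepatocyte markers 3 rose, Cps1, Tat and Hnf4a, with sums of 6230 to 7327 and 5711 to 6848.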

How the data were processed

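Total liver RNA of 24 mice was hybridised to 1-colour Agilent arrays, 1 mouse per array. The deposited scanner files hold processed signal intensity per spot, background-subtracted by Agilent Feature Extraction 10.10.1.1, per the file headers. The deposited series table of 35967 probes holds log2 values whose normalization is not given in the sources used here. Its columns correlated with the scanner signals at r of at least 0.9978 and had medians of 7.383 to 7.390, with direction and log base borne out by that comparison. The submitters' processing notes name limma without a version.

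Control and outlier spots were left out and spots of a probe averaged. The log2 processed signal was centred on each array's 75th percentile over non-control probes. Probes well above background on at least 6 of 24 arrays were kept, and the brightest kept probe stood for its gene. A limma 3.58.1 fit (R 4.3.3) over all 4 groups gave differences and SEs, with Benjamini-Hochberg adjustment over 23966 genes, threshold 0.05. The number of arrays limits the precision. The fit was tested on simulated data. Genes were named by rule: every probe of the 5 genes, up to 4 called genes of each list with the largest fasted change, every listed gene called in a sugar comparison, and the 5 most similar genes by r for each of the 5 (some of these 5 are printed). A few listed genes are not reported by name here. The genes and lists were chosen with earlier results of these data known. Mice sharing a replicate number did not deviate together: the mean r of their deviations was 0.0335 over 36 pairs, 9 of them above 0.1, so the numbers were not taken as pairs. Alternatives tried were normexp correction with an offset of 50, quantile normalization, median centring, the deposited table, other probe filters, the mean of a gene's probes, slide and replicate blocks, fits of 2 groups and leaving out each mouse. Probe coordinates are those of the array's design (mm9), and promoters are from RefSeq on GRCm38.p6.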

Additional observations from a re-analysis of the deposited data

Results flagged for a closer look

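Over the 12 probes and 4 groups, 6 of 48 sets of 6 mice had a highest or lowest mouse whose gap to its neighbour exceeded Dixon's critical value for 6 samples, where chance gives about 1 in 20. At the Tg probe at base 4639, replicate 1 of the fructose group stood alone at -3.32 and was the 1 array above background. At the Tg probe at base 8231, replicate 3 of the tap water group was highest at -5.27, still below background. At the Ttr probe at base 428, fasted replicate 1 was highest at 9.59 and fructose replicate 4 was highest at 9.78. At the Slc16a10 probe at base 1044, fructose replicate 6 was lowest at -2.08. At the Klf9 probe at base 2271, replicate 5 of the tap water group was highest at 3.37.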

How the results depend on the processing

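No alternative run turned the sign of a difference that separated the groups, and that of Klf9 on glucose crossed 0 when 1 mouse was left out. The Tg bound of 3.54 (log2, fasted against tap water) was 2.07 in the deposited table and 1.30 after normexp. The Ttr fasted difference of -0.23 was -0.45 in the deposited table, -0.41 after quantile normalization and -0.75 as the mean of its probes. The Ttr fructose difference of -0.13 was -0.030 in the deposited table and -0.015 after quantile normalization. The Ttr glucose difference of -0.09 was -0.020 as the mean of the probes. The cause was not tested, except that the mean of the probes brings in base 1005. Of the 58 pathway genes, the 2 higher on glucose became 5 in the deposited table and 4 after normexp, and the 1 lower became 2, 2 and, with only the 2 groups fitted, 3. The 3 higher on fructose became 1 with only the 2 groups fitted, and the 0 lower became 1 in the deposited table and 2 after normexp. With each mouse left out in turn, the range was 3.38 to 3.78 for the Tg bound, 1.32 to 1.43 for Klf9, 0.90 to 1.09 for Slc16a10, -0.48 to -0.31 for Dio1 and -0.25 to -0.23 for Ttr, all fasted against tap water. For glucose it was -0.77 to -0.61 for Slc16a10, -0.22 to -0.05 for Dio1, -0.12 to 0.04 for Klf9 and -0.10 to -0.08 for Ttr. For fructose it was -0.32 to -0.15 for Slc16a10, -0.26 to -0.06 for Dio1, 0.06 to 0.19 for Klf9 and -0.17 to -0.12 for Ttr. The pathway counts then ran from 12 to 15 higher and 19 to 23 lower in fasted mice, 2 to 4 higher and 0 to 2 lower on glucose, and 2 to 3 higher and 0 to 1 lower on fructose, and stayed at 0 between fructose and glucose. A replicate block was also added, although the numbers do not pair the mice. Every group held 1 mouse of each replicate number, so this block could not change the differences of the 5 genes (Klf9 at 1.37). It could change the calls, and gave 13 higher and 20 lower pathway genes in fasted mice, against 14 and 21 without it. Tg has no value among fed groups or with probes required on all 24 arrays, since it was below background there. Signal over background limits Tg and the follicle genes.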
